A study of Mus musculus with 16 samples.

Results

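The 32 genes described here mark GABAergic interneurons, the local inhibitory neurons of the hippocampus. They were chosen by symbol from the 46403 gene symbols of the deposited tables, and all 32 were found. They were read in RNA sequencing libraries of the CA1 subfield from 16 mice, of which 8 carried the Fmr1 knockout (Fmr1-KO) and 8 were wild type (WT, given as C57BL/6). The product of Fmr1, FMRP, binds RNA and restrains translation, and it is lost in fragile X syndrome. Each mouse had served as a yoked control of an active place avoidance task, in which the yoked animal serves as the untrained comparison. The labels name no transgene, age or littermate relation, so genotype was the only factor compared. Each library is labelled with an animal of its own, a number with the letter B or D, and the p-values measure the spread between these animals. Several pairs of libraries within a genotype share a number and differ in the letter. The labels do not say what a shared number means, and the main test took all libraries as independent.

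Interneurons make GABA from glutamate with the decarboxylases encoded by Gad1 and Gad2 and load it into vesicles with the transporter encoded by Slc32a1. In GRCm38 (GENCODE M21) Gad1 (ENSMUSG00000070880) lies at chr2:70553072-70602014, Gad2 (ENSMUSG00000026787) at chr2:22622205-22693874, Slc32a1 (ENSMUSG00000037771) at chr2:158610767-158615748 and Sst (ENSMUSG00000004366) at chr16:23889573-23890958. In CA1 interneurons fall into classes known by a calcium-binding protein or a peptide. Parvalbumin cells inhibit the soma and the axon initial segment, many somatostatin cells inhibit distal dendrites, Vip and Cck cells include those that inhibit other interneurons and a further set of basket cells, and neurogliaform cells release GABA diffusely. In tissue RNA, fewer interneurons and less RNA per interneuron cannot be told apart. Altered inhibition is a recurring theme of work on Fmr1 mutants. Some of the 32 genes are not private to interneurons: Cck, Calb1, Nos1 and Penk are also transcribed by pyramidal or granule cells, Reln, Ndnf and Calb2 by Cajal-Retzius or mossy cells, Erbb4 by other neural cells and Maf by microglia.

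Promoter sequence is shown for Sst, Vip and Dlx6os1, which are among the members with a motif match given below. Sst and Vip transcripts varied strongly between animals, but Reln and Npy, which varied more than Vip, had no match. Dlx6os1, an RNA transcribed antisense to Dlx6, was among the genes with the smallest p. Dlx1 and Kcnip1 had a smaller p and no match. Whether these motifs bear on the levels was not tested. Each line gives the 150 bases before the RefSeq start site (GRCm38.p6), 5′ to 3′ on the gene's strand. In GENCODE, Sst and Dlx6os1 begin farther upstream, at chr16:23890958 and chr6:6871592 on the minus strand. Their printed windows thus lie partly (Sst) or wholly (Dlx6os1) inside the GENCODE gene spans. Capitals mark the cyclic AMP response element TGACGTCA in Sst, its first 7 letters TGACGTC in Vip, and the homeodomain core TAATTA in Dlx6os1.
Sst, chr16:23890845-23890994, minus strand: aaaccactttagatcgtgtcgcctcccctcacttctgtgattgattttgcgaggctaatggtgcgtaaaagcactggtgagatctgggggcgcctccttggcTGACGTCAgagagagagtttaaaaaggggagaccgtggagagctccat
Vip, chr10:5639068-5639217, plus strand: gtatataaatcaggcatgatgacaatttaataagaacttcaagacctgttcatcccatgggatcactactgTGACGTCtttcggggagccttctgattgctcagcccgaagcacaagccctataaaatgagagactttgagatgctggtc
Dlx6os1, chr6:6869534-6869683, minus strand: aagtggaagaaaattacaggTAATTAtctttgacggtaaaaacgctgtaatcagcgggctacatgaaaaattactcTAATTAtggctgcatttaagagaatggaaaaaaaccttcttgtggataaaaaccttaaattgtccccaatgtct
Both matches in Dlx6os1 are marked. The match in Sst began 48 bases before the start and that in Vip 79 bases before it. Windows of 250 bases before to 50 after the start were listed for 23 of the 32 genes, as 31 windows. On either strand, TGACGTCA was in 1.79% of all 32851 windows and, among the members, in that of Sst alone. TGACGTC, which lies inside TGACGTCA, was in 3.21% of all windows and in those of Sst and Vip. TAATTA was in 5.29% of all windows and in 4 of the 31 member windows, those of Adarb2, Tac1 and both starts of Dlx6os1.

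Libraries held 1480966 to 3275003 estimated counts, except WT replicates 3 and 6 with 878484 and 515103, and the 10 largest genes took 10.3% and 31.6% of these last libraries against 3.73% to 6.06% elsewhere. WT replicate 3 also held more glial RNA, with summed astrocyte markers at 5329 CPM (counts scaled to library size by TMM) against 1569 to 2513 CPM in Fmr1-KO libraries. Member results that either library moved strongly are also given without both. Marker sums were 236 to 468 CPM in Fmr1-KO and 260 to 702 CPM in WT for oligodendrocytes, and 39.2 to 103 CPM and 52.7 to 168 CPM for their precursors. All tested markers of these glia had a log2 fold change of Fmr1-KO over WT below 0, with medians of -0.35 for 8 astrocyte markers, -0.40 for 8 oligodendrocyte markers and -0.46 for 5 precursor markers. In the 14 deeper libraries these medians came to -0.10, -0.38 and -0.07, with 6, 8 and 3 markers below 0. CA1 markers were present throughout, with the pyramidal gene Wfs1 at 730.0 to 1187 CPM and the sum of 9 pyramidal markers at 4248 to 4803 CPM. The 9 dentate granule markers summed to 140 to 248 CPM in Fmr1-KO and 156 to 236 CPM in WT, most of it Lct at 117 to 219 CPM. Of the others, Pdzd2 was read in every library, Prox1, Trpc6 and Stxbp6 were at 0 in 2 libraries each, Plk5 in 8, C1ql2 and Tdo2 in 10 and Dsp in 11. Fmr1 itself averaged 22.2 ± 7.08 CPM across Fmr1-KO mice and 58.1 ± 19.4 CPM across WT mice (± SD, n = 8), with no overlap between the groups.

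The 32 genes spanned a wide range of abundance. On a per-length scale (TPM, which divides counts by transcript length) in the 14 libraries other than WT replicates 3 and 6, Cck stood first, with a median of 901 TPM and a range of 536 to 2002. Its lowest library lay above the highest library of every other member, 531 TPM for Sst. Sst followed with a median of 116 TPM but ranged from 0 to 531, so that its place in the order held for the median alone. Gad1 had a median of 83.4 TPM, Penk of 80.6, Lamp5 of 42.3, Npy of 40.1 and Calb1 of 34.5, and the ranges of these 5 overlapped. Slc32a1 and Gad2 were close to each other at 24.0 and 23.9 TPM, and Pvalb was at 20.2 TPM. At the low end Ndnf had a median of 0.48 TPM, and Tac1 and Crh had a median of 0.

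**Figure D1:**
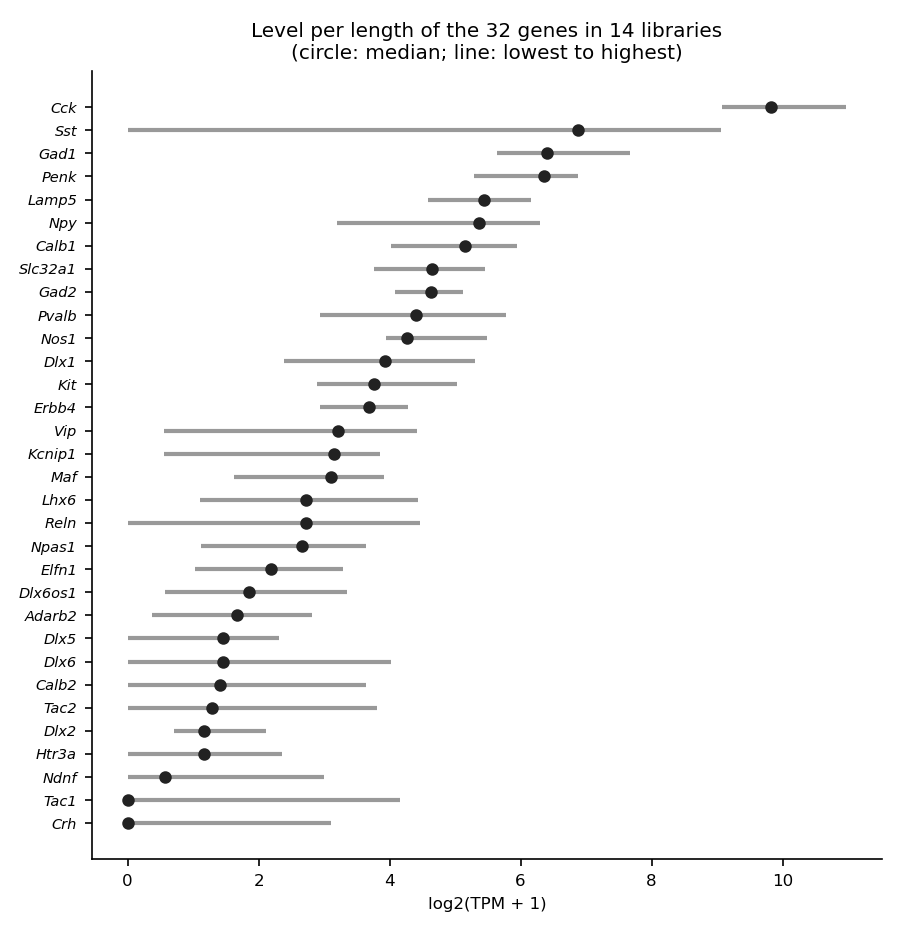
Level per length of the 32 interneuron genes in the 14 libraries other than WT replicates 3 and 6, as log2(TPM + 1) on the horizontal axis. Circles are medians and lines run from the lowest to the highest library; Cck stands apart at the top with a median of 901 TPM, and the line of Sst runs from 0 to 531 TPM.

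No member passed the test between genotypes. Of the 32, 23 passed the filter on low counts and were tested, and 0 of the 23 passed the threshold of 0.05 in edgeR's quasi-likelihood test with Benjamini-Hochberg adjustment over all 11515 genes, where 0.0174% of genes passed. The smallest adjusted p among members was 0.518, for Maf. At an unadjusted p under 0.05 there were 4 members, all lower in Fmr1-KO, where 4.28% of all genes were lower and 3.61% higher by that rule. By DESeq2, 0 members passed, where 0.0695% of genes did, and 4 had an unadjusted p under 0.05, where 9.12% did. By limma-voom with quality weights the counts were 0 and 5 members, where 0.0608% and 12.6% of genes passed. The log2 fold change of Fmr1-KO over WT was below 0 for 17 of the 23 tested members and for 51.9% of all genes tested, and its median was -0.14 for the members and -0.01 for all genes. Without WT replicates 3 and 6, 0 members passed, where 0.0169% of genes did. In that fit the log2 fold change was below 0 for 13 of the 23, against 50.3% of all genes, with a median of -0.11, and 3 members had an unadjusted p under 0.05, all lower, against 3.33% of genes. The part of the glial markers, which lay on the same side, in these counts was not tested.

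**Figure D2:**
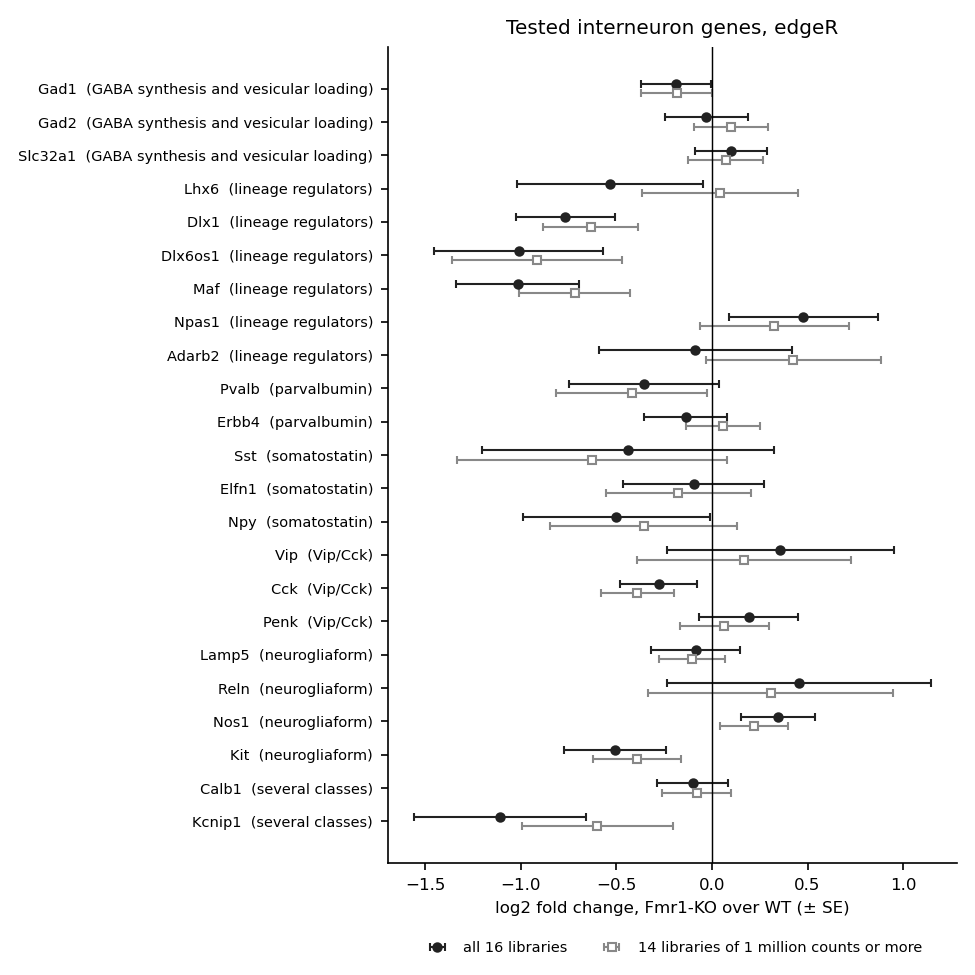
Log2 fold change of Fmr1-KO over WT (horizontal axis, with its standard error) for the 23 tested members, with the subgroup of each in brackets. Filled circles are the fit of all 16 libraries and open squares the fit of the 14 libraries other than WT replicates 3 and 6; 17 of the 23 filled circles lie below 0, and Lhx6, Gad2, Adarb2 and Erbb4 lie on the other side of 0 in the second fit.

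None of the 3 genes of GABA synthesis and vesicular loading passed the test, and their summed level differed by less than the spread between animals. Gad1, which encodes the decarboxylase GAD67, ranged from 51.6 to 165 CPM in Fmr1-KO (median 112) and from 94.6 to 169 CPM in WT (median 124). Fmr1-KO replicates 8 and 3 lay below every WT library, and the other 6 Fmr1-KO libraries lay within the WT range. Its log2 fold change was -0.19 (SE 0.18, edgeR adjusted p = 0.828). Gad2, which encodes GAD65, the form tied to synaptic vesicles, ranged from 48.7 to 118 CPM in Fmr1-KO (median 71.1) and from 47.1 to 134 CPM in WT (median 66.8). WT replicate 3 was its highest library, and the groups overlapped throughout. The log2 fold change of Gad2 was -0.03 (SE 0.22, edgeR adjusted p = 0.980), or 0.10 without WT replicates 3 and 6. Slc32a1, the vesicular GABA transporter gene, ranged from 21.1 to 47.9 CPM in Fmr1-KO (median 39.4) and from 25.6 to 55.8 CPM in WT (median 33.3). Here the higher median was that of Fmr1-KO, with a log2 fold change of 0.10 (SE 0.19, edgeR adjusted p = 0.921). Summed over these 3 genes, levels were 225 ± 66.2 CPM across Fmr1-KO mice and 239 ± 51.7 CPM across WT mice (± SD, n = 8). The sum of the 9 CA1 pyramidal markers found was 4539 ± 148 CPM and 4457 ± 157 CPM.

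**Figure D3:**
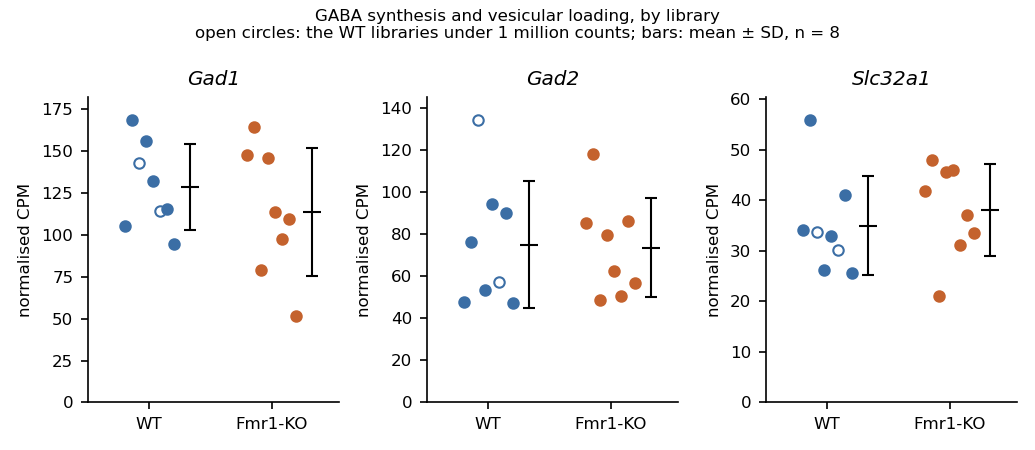
Normalised CPM (vertical axes, from 0) of Gad1, Gad2 and Slc32a1 in each library, by genotype. Points are libraries, open points WT replicates 3 and 6, and bars the mean ± SD (n = 8); the groups overlap for each gene, and the lowest Gad1 value, 51.6 CPM, is Fmr1-KO replicate 8.

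By the deposited assignment of reads, most Gad1 RNA was coding. Protein-coding transcripts took 79.4% of its CPM and Gad1-006, a processed transcript annotated as non-coding, 19.3%. Gad1-001, the leading coding transcript, stood at 90.9 ± 47.7 CPM across Fmr1-KO mice and 96.2 ± 43.4 CPM across WT mice (± SD, n = 8). Of 115 annotated transcripts of the members, 24 from 20 genes were tested and 0 passed the edgeR test over 16772 transcripts, where 0.00596% passed. At an unadjusted p under 0.05 there was 1, Maf-002, at 8.11 ± 6.76 CPM across Fmr1-KO mice and 20.7 ± 14.3 CPM across WT mice (± SD, n = 8), where 2.06% of all transcripts were lower by that rule.

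Gad1 and Gad2, the paired decarboxylase genes, were compared across animals along with 4 other pairs of members. Across the 16 libraries, log2(CPM + 1) of Gad1 and Gad2 had a Pearson r of 0.56 (permutation p = 0.0144, adjusted 0.0718 over 5 pairs) and a Spearman rho of 0.60 (permutation p = 0.0161, adjusted 0.0548). Without the 2 libraries farthest from the Gad1 median, r was 0.67 (n = 14, permutation p = 0.00902, adjusted 0.0451). Within Fmr1-KO r was 0.75 and within WT 0.46 (n = 8 each, exact permutation p = 0.022 and 0.247). Gad1 and Slc32a1 had an r of 0.50 and a rho of 0.58 (permutation p = 0.0502 and 0.0219, adjusted 0.0836 and 0.0548), with r at 0.58 without those 2 libraries. Gad1 and Pvalb had an r of 0.51 and a rho of 0.45 (permutation p = 0.046 and 0.0851, adjusted 0.0836 and 0.142). That relation rested on 2 libraries, Fmr1-KO replicate 8 and WT replicate 2, without which r was 0.34. Within Fmr1-KO and WT, r was 0.67 and 0.46 for Gad1 and Slc32a1, and 0.52 and 0.45 for Gad1 and Pvalb. Gad1 and Sst had an r of -0.10 and a rho of -0.17 (permutation p = 0.754 and 0.518, the same after adjustment). None of the 5 pairs passed over all 16 libraries after adjustment.

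Of the 4 members with an unadjusted p under 0.05, 3 were among the 6 tested genes of interneuron lineage. All 3 were lower in Fmr1-KO, where 4.28% of all genes were lower by that rule. The lineage genes are called regulators below, although Adarb2 is in the group as a marker. The median log2 fold change of the 6 was -0.65, with 1 above 0. Without WT replicates 3 and 6 it was -0.30, with 3 above 0 and 3 lower at an unadjusted p under 0.05, against 3.33% of all genes. Maf encodes a transcription factor of interneurons from the medial ganglionic eminence and is also expressed by microglia. It ranged from 7.05 to 27.7 CPM in Fmr1-KO (median 13.5) and from 17.7 to 60.0 CPM in WT (median 27.5). All but 1 of the Fmr1-KO libraries lay below the WT median, and WT replicates 3 and 6 were the highest at 60.0 and 42.1 CPM. Its log2 fold change was -1.02 (SE 0.32, unadjusted p = 0.0046, edgeR adjusted p = 0.518), or -0.72 without those WT libraries (adjusted p = 0.644). Microglial markers lay on the same side: 9 of 9 had a log2 fold change below 0, with a median of -0.31, and their sum ranged from 166 to 293 CPM in Fmr1-KO and from 213 to 525 CPM in WT. The highest of these sums was WT replicate 3, and without WT replicates 3 and 6 the median was -0.16. Endothelial and pericyte markers had a median of -0.66, with 9 of 9 tested below 0 and sums of 75.8 to 167 CPM in Fmr1-KO against 113 to 455 CPM in WT, the last in WT replicate 3. Without WT replicates 3 and 6 their median was -0.40, with 8 of 9 below 0. The part of these cells in the Maf difference was not tested.

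Dlx1, a homeobox gene needed by migrating and mature interneurons, ranged from 8.91 to 25.0 CPM in Fmr1-KO (median 11.3) and from 15.3 to 39.6 CPM in WT (median 22.7). Of the 8 Fmr1-KO libraries 7 lay below the WT median, and Fmr1-KO replicates 2 and 6 lay within the WT range. The log2 fold change was -0.77 (SE 0.26, unadjusted p = 0.00717, edgeR adjusted p = 0.568), and -0.63 without WT replicates 3 and 6 (adjusted p = 0.644). Transcripts annotated as retaining an intron took 88.9% of Dlx1 CPM and protein-coding ones 10.5%. An antisense gene, Dlx1as, overlaps it and was read at 1.60 ± 2.03 CPM across Fmr1-KO mice and 3.75 ± 2.07 CPM across WT mice (± SD, n = 8). Whether counting used strand is not given in the sources used here, so reads of the pair cannot be told apart.

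Dlx6os1, the antisense RNA of the Dlx5 and Dlx6 locus whose promoter is printed above, ranged from 1.01 to 21.6 CPM in Fmr1-KO (median 5.65) and from 5.47 to 20.2 CPM in WT (median 13.9). Fmr1-KO replicate 2 was the highest of all 16 libraries, while the other 7 Fmr1-KO libraries lay below the WT median. The log2 fold change was -1.01 (SE 0.44, unadjusted p = 0.0319, edgeR adjusted p = 0.622), or -1.49 without Fmr1-KO replicate 2. It was -0.92 without WT replicates 3 and 6 (adjusted p = 0.681). Dlx6 overlaps this gene on the opposite strand and was too low to test, with at most 11 estimated counts in a library. Dlx2 and Dlx5 were also not tested, with at most 12 and 10 estimated counts.

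The other tested regulators did not pass the test, and 2 of them took the other sign without WT replicates 3 and 6. Lhx6, the regulator of parvalbumin and somatostatin lineages, ranged from 1.32 to 19.1 CPM in Fmr1-KO and from 4.86 to 51.6 CPM in WT, with WT replicate 3 far above the rest. Its log2 fold change was -0.53 (SE 0.49, edgeR adjusted p = 0.813) and 0.04 without WT replicates 3 and 6. Adarb2, a marker of interneurons from the caudal ganglionic eminence, had -0.09 (SE 0.50) and 0.43 without those libraries. Npas1, a transcription factor gene of interneurons, averaged 6.77 ± 3.49 CPM across Fmr1-KO mice and 4.45 ± 2.17 CPM across WT mice (± SD, n = 8). Its log2 fold change was 0.48 (SE 0.39, edgeR adjusted p = 0.789), or 0.33 without WT replicates 3 and 6. Summed over all 9 regulators, levels were 64.0 ± 26.9 CPM across Fmr1-KO mice and 102 ± 46.7 CPM across WT mice (± SD, n = 8), or 81.8 ± 13.9 CPM in the 6 deeper WT libraries.

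**Figure D4:**
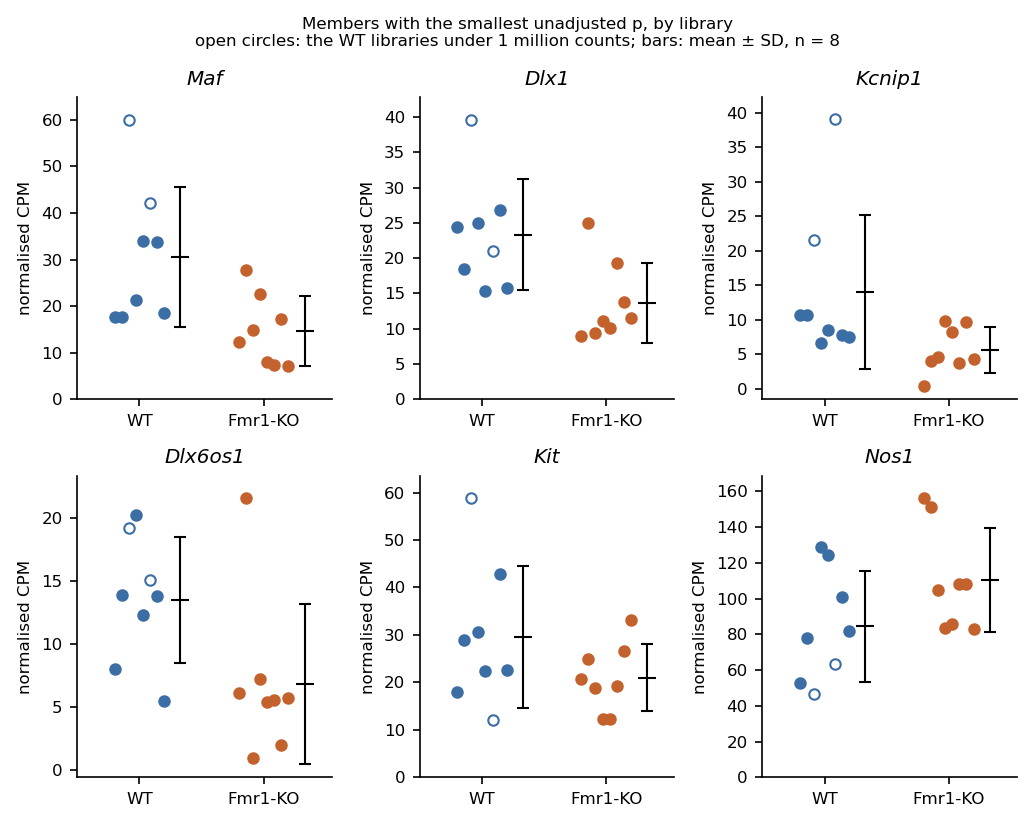
Normalised CPM (vertical axes) of Maf, Dlx1, Kcnip1, Dlx6os1, Kit and Nos1, the 6 members with the smallest unadjusted p, in each library by genotype. Points are libraries, open points WT replicates 3 and 6, and bars the mean ± SD (n = 8); the groups overlap for each gene, and open points are the highest WT values for Maf, Dlx1, Kcnip1 and Kit.

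No parvalbumin cell gene passed the test. Pvalb, the calcium buffer that names the class, ranged from 3.03 to 20.0 CPM in Fmr1-KO (median 8.17) and from 3.23 to 20.3 CPM in WT (median 9.75). The groups shared nearly the whole range, with a log2 fold change of -0.35 (SE 0.39, edgeR adjusted p = 0.860). Erbb4, the neuregulin receptor gene, ranged from 36.1 to 101 CPM in Fmr1-KO and from 37.4 to 120 CPM in WT, and its log2 fold change was -0.14 (SE 0.22), or 0.06 without WT replicates 3 and 6. Tac1, the substance P precursor gene, was listed at 0 in 5 libraries of each genotype and was not tested. The sum of the 3 averaged 68.5 ± 23.8 CPM across Fmr1-KO mice and 79.0 ± 29.3 CPM across WT mice (± SD, n = 8), or 69.4 ± 18.2 CPM in the 6 deeper WT libraries. WT replicate 3 held 140 CPM.

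Among somatostatin cell genes the spread between animals was larger than the difference between genotypes. Sst, the somatostatin precursor gene whose promoter is printed above, ranged from 0 to 74.0 CPM in Fmr1-KO (median 24.1) and from 0 to 104 CPM in WT (median 26.4). Each genotype held 1 library with no Sst count, Fmr1-KO replicate 6 and WT replicate 4, where 3 counts would have been 1.12 CPM in each. Its log2 fold change was -0.44 (SE 0.76, edgeR adjusted p = 0.917), or -0.63 without WT replicates 3 and 6. Within genotypes, in the 14 deeper libraries, the coefficient of variation (CV) of Sst was 104%, against 10.8% from counting error alone at its mean count of these libraries. The median CV over all tested genes was 24.6%, and 0.278% of tested genes had a higher CV than Sst.

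The libraries without Sst still held interneuron RNA. Gad1 was 97.8 CPM in Fmr1-KO replicate 6 and 156 CPM in WT replicate 4, inside the range of the others. Elfn1, a synaptic adhesion gene of somatostatin cells, was 7.06 and 9.72 CPM in them and 2.64 to 13.6 CPM over all 16 libraries. Npy, the neuropeptide Y precursor gene, was 2.97 and 1.495 CPM there, and it ranged from 1.76 to 16.4 CPM in Fmr1-KO (median 7.82) and from 1.495 to 26.5 CPM in WT (median 9.35). WT replicate 5 was its highest library. Npy had a log2 fold change of -0.50 (SE 0.49, edgeR adjusted p = 0.829) and Elfn1 of -0.10 (SE 0.37). Without WT replicates 3 and 6 these were -0.36 and -0.17. Sst and Npy had an r of 0.41 and a rho of 0.25 across the 16 libraries (permutation p = 0.118 and 0.359, adjusted 0.148 and 0.449), and the r rested on the 2 libraries without Sst, being 0.07 without them. Without WT replicates 3 and 6, which leaves those 2 libraries in, r was 0.56 (permutation p = 0.0394, adjusted 0.0867).

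Vip and Cck cell genes likewise overlapped. Vip, the vasoactive intestinal peptide gene, ranged from 2.23 to 11.5 CPM in Fmr1-KO (median 6.72) and from 0 to 13.3 CPM in WT (median 3.37). WT replicates 1 and 4 held 0.33 and 0.37 CPM, below every Fmr1-KO library, while WT replicate 2 was the highest of all. WT replicate 3 held no count, but 3 counts there would have been 3.60 CPM, above the lowest Fmr1-KO library. The log2 fold change was 0.36 (SE 0.60, edgeR adjusted p = 0.912), or 0.17 without WT replicates 3 and 6. Cck, the cholecystokinin gene, ranged from 186 to 491 CPM in Fmr1-KO (median 211) and from 189 to 456 CPM in WT (median 262). Fmr1-KO replicate 5 was the highest, and 5 of 8 Fmr1-KO libraries lay below the WT median. Its log2 fold change was -0.28 (SE 0.20, edgeR adjusted p = 0.757), and -0.39 without WT replicates 3 and 6 (unadjusted p = 0.054, adjusted p = 0.692). Penk, the enkephalin precursor gene, averaged 39.8 ± 12.4 CPM across Fmr1-KO mice and 34.0 ± 14.5 CPM across WT mice (± SD, n = 8), with a log2 fold change of 0.19 (SE 0.26), or 0.07 without WT replicates 3 and 6. Calb2, Htr3a and Tac2, which encode calretinin, a serotonin receptor subunit and neurokinin B, held 67, 63 and 32 estimated counts over all libraries and were not tested.

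**Figure D5:**
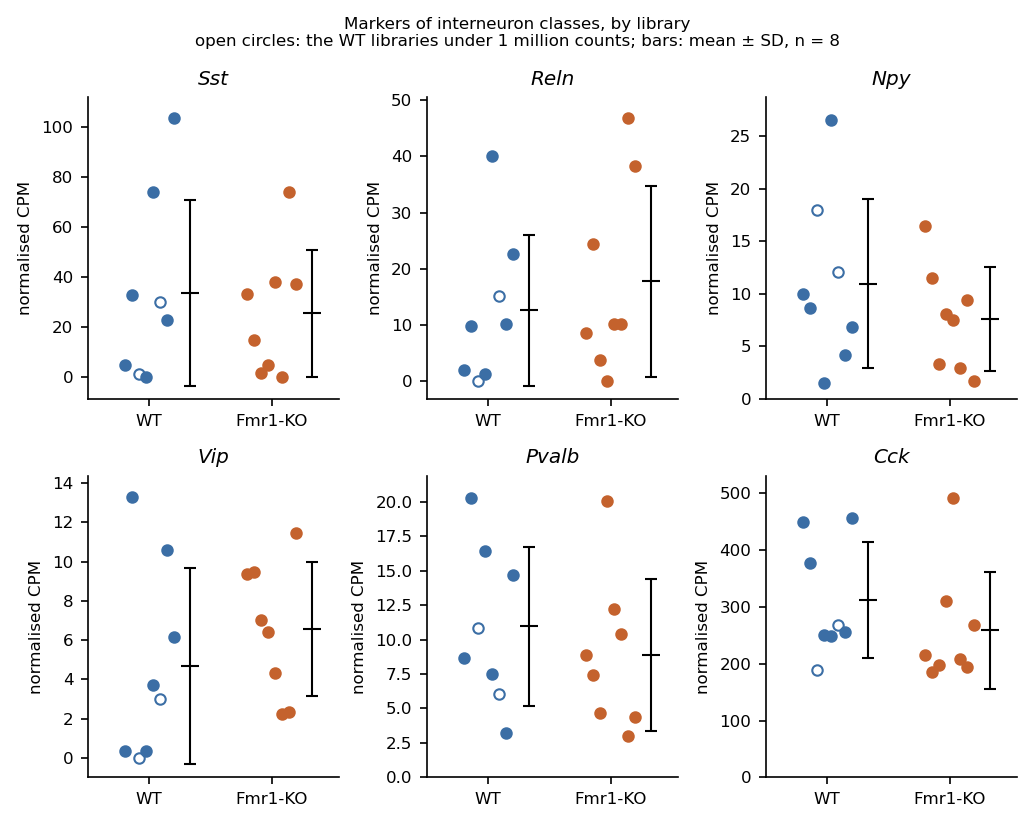
Normalised CPM (vertical axes) of Sst, Reln, Npy, Vip, Pvalb and Cck in each library by genotype. Points are libraries, open points WT replicates 3 and 6, and bars the mean ± SD (n = 8); Sst runs from 0 to 74.0 CPM in Fmr1-KO and from 0 to 104 CPM in WT, and the groups overlap for each gene.

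Of the 4 tested neurogliaform cell genes, 2 had a log2 fold change above 0 and 2 below it, and none passed the test. Lamp5, a membrane protein gene of these cells, ranged from 23.0 to 46.9 CPM in Fmr1-KO (median 41.1) and from 10.8 to 75.2 CPM in WT (median 42.4). Both WT extremes were the shallow libraries, and the log2 fold change was -0.09 (SE 0.23, edgeR adjusted p = 0.950). Nos1, the neuronal nitric oxide synthase gene, ranged from 82.8 to 156 CPM in Fmr1-KO (median 107) and from 46.8 to 129 CPM in WT (median 80.1). None of the 8 Fmr1-KO libraries lay below the median of all WT libraries. The median of the 6 deeper WT libraries was 91.3 CPM. Fmr1-KO replicates 4, 5 and 8 lay below that, at 83.6, 85.8 and 82.8 CPM. The log2 fold change of Nos1 was 0.34 (SE 0.19, unadjusted p = 0.0893, edgeR adjusted p = 0.670), or 0.22 without WT replicates 3 and 6. Kit, a receptor tyrosine kinase gene, ranged from 12.2 to 33.1 CPM in Fmr1-KO (median 20.0) and from 12.04 to 58.8 CPM in WT (median 25.7). WT replicate 3 was its highest library and WT replicate 6 its lowest. The log2 fold change of Kit was -0.51 (SE 0.27, unadjusted p = 0.0716, edgeR adjusted p = 0.657), or -0.39 without those WT libraries. Ndnf, which encodes a secreted factor, held 130 estimated counts over all libraries and was not tested.

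Reln, the gene of the secreted protein reelin, varied almost as much as Sst. It ranged from 0 to 46.8 CPM in Fmr1-KO (median 10.1) and from 0 to 40.0 CPM in WT (median 9.99). The log2 fold change of Reln was 0.46 (SE 0.69, edgeR adjusted p = 0.904), or 0.31 without WT replicates 3 and 6. Its CV within genotypes was 99.3%, against 15.5% from counting error. The 3 libraries with the most Reln, picked out after their values were seen, lay above the Sst median of their genotype. Fmr1-KO replicate 7 held 46.8 CPM of Reln and 74.0 CPM of Sst, WT replicate 5 held 40.0 and 74.0 CPM, and Fmr1-KO replicate 8 held 38.3 and 37.0 CPM. WT replicate 8, with the most Sst, held 22.5 CPM of Reln. Summed Cajal-Retzius markers ranged from 9.69 to 30.7 CPM in Fmr1-KO and from 10.02 to 57.2 CPM in WT, most of it Cacna2d2, which was read in every library with a median of 18.5 CPM. Lhx5 was at 0 in 2 libraries, Ebf3 in 5, Trp73 in 7 and Lhx1 in 12, and the part of these cells in the Reln levels was not tested. The highest Cajal-Retzius sums were those of the shallow WT replicates 6 and 3. WT replicate 3 held no Reln count, but 3 counts there would have been 3.60 CPM. After Sst and Reln, the largest CVs within genotypes were those of Npy at 80.6%, Vip at 69.6% and Adarb2 at 66.9%, with 21.4%, 25.2% and 25.7% from counting error. The smallest were 21.0% for Lamp5 and 24.5% for Calb1, near the median of all tested genes.

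Of the members shared by several classes, Kcnip1 had the largest difference in size and Calb1 had little. Kcnip1 encodes a calcium-binding subunit of A-type potassium channels, and its gene span is overlapped on the opposite strand by Kcnmb1. Its counts carry the doubt given for Dlx1 only where transcripts of the pair overlap, which was not examined. It ranged from 0.47 to 9.81 CPM in Fmr1-KO (median 4.55) and from 6.73 to 39.1 CPM in WT (median 9.64). WT replicates 6 and 3 were the highest at 39.1 and 21.6 CPM, and 6 of 8 Fmr1-KO libraries lay below the WT median. Its log2 fold change was -1.11 (SE 0.45, unadjusted p = 0.0226, edgeR adjusted p = 0.597) and was -0.60 without those WT libraries (unadjusted p = 0.143, adjusted p = 0.759). Calb1, the calbindin gene, which CA1 pyramidal and granule cells also express, averaged 49.0 ± 13.7 CPM across Fmr1-KO mice and 53.9 ± 14.9 CPM across WT mice (± SD, n = 8), a log2 fold change of -0.10 (SE 0.19). Crh, the corticotropin-releasing hormone gene, was listed at 0 in 5 Fmr1-KO and 6 WT libraries and was not tested.

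Genes around GABA and the member peptides were read from 4 further lists, in which 0 genes passed the edgeR test over all genes. Of 8 tested genes of GABA uptake and breakdown, 1 had an unadjusted p under 0.05, where 7.89% of all genes did. That was Glul, the glutamine synthetase gene of astrocytes, at 543 ± 47.5 CPM across Fmr1-KO mice and 655 ± 196 CPM across WT mice (± SD, n = 8). Glul had a log2 fold change of -0.27 (SE 0.12, unadjusted p = 0.0417, edgeR adjusted p = 0.628), and -0.12 without WT replicates 3 and 6 (unadjusted p = 0.115), where no gene of the list had an unadjusted p under 0.05. For Slc6a11, an astrocytic GABA transporter gene, the log2 fold change was -0.14 (SE 0.13). For Abat, the GABA transaminase gene, it was -0.16 (SE 0.16). Of 10 tested receptor genes for the member peptides and reelin, 2 had an unadjusted p under 0.05, both lower, where 4.28% of all genes were lower. Sstr3, a somatostatin receptor of neuronal cilia, averaged 7.56 ± 3.36 CPM across Fmr1-KO mice and 18.6 ± 7.48 CPM across WT mice (± SD, n = 8), a log2 fold change of -1.31 (SE 0.33, edgeR adjusted p = 0.506), or -1.28 without WT replicates 3 and 6 (adjusted p = 0.353). All 8 Fmr1-KO libraries lay below the WT median of Sstr3, and the groups overlapped. Vipr1, a receptor for Vip, was 16.6 ± 5.26 CPM and 26.1 ± 8.64 CPM, a log2 fold change of -0.68 (SE 0.23, edgeR adjusted p = 0.570), or -0.79 without WT replicates 3 and 6 (adjusted p = 0.488). Sstr4, the other tested somatostatin receptor gene, had 0.22 (SE 0.16), and the delta opioid receptor gene Oprd1 had -0.55 (SE 0.39).

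Perineuronal net genes, which build the matrix around many parvalbumin cells, had 0 of 9 tested genes at an unadjusted p under 0.05. The aggrecan gene Acan had a log2 fold change of -0.80 (SE 0.61) at 3.36 ± 2.58 CPM across Fmr1-KO mice and 5.57 ± 5.08 CPM across WT mice (± SD, n = 8), and the link protein gene Hapln1 one of -0.65 (SE 0.35), or -0.35 without WT replicates 3 and 6. Vcan had -0.45 (SE 0.39), or 0.15 without WT replicates 3 and 6, and Tnr had 0.12 (SE 0.13). Among 23 other interneuron genes tested, an unadjusted p under 0.05 was reached by 1 gene higher in Fmr1-KO and by 2 lower, against 3.61% and 4.28% of all genes. These were Nrg3, a ligand of the Erbb4 receptor, with a log2 fold change of 0.29 (SE 0.14, edgeR adjusted p = 0.628), Cplx1, the complexin of fast release, with -0.32 (SE 0.14, adjusted p = 0.617), and Lypd6, a nicotinic receptor modulator, with -0.78 (SE 0.34, adjusted p = 0.622). Without WT replicates 3 and 6, only Lypd6 of these stayed under 0.05 in the edgeR test before adjustment, at 0.0364, while Nrg3 was at 0.0614 and Cplx1 at 0.0808.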

How the data were processed

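Total RNA of CA1 was extracted with a Promega kit and the libraries were run on Illumina HiSeq instruments, per the labels' protocols. FastQC, cutadapt, kallisto and DESeq2 are named in the submitters' processing notes, and the genome build is not given in the sources used here. The authors deposited estimated counts and TPM per transcript (111706 transcripts), in 1 table per library. Estimated counts are reads divided among transcripts by a model, and TPM is scaled by effective length and holds no depth.

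Estimated counts were summed by symbol, rounded, and tested with edgeR 4.0.16 in R 4.3.3 (quasi-likelihood, TMM, filterByExpr with a minimum count of 10, Benjamini-Hochberg over all genes, threshold 0.05). A standard error is the log2 fold change divided by the square root of F. Correlations used 100000 permutations, or all of them within a genotype, in SciPy 1.17.1, two-sided. Floors and counting CVs cover counting error only. Gene positions and overlaps came from GENCODE M21 (GRCm38), and promoters from RefSeq. Replicate numbers were given in the order of the sample list, so they join no samples across genotypes. Alternatives were DESeq2 1.42.0, limma 3.58.1, other scalings and filters, TPM, label letter and number, and left-out libraries. The code was tested on simulated data. Members and lists were chosen with earlier results of these data known. Named were 10 preset members, the 8 with the smallest p, and up to 4 genes with the smallest p of each further list; the other members are given more briefly. Some genes of these lists are not reported here.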

Additional observations from a re-analysis of the deposited data

Results flagged for a closer look

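A library lay far from the others of its genotype in 13 of 60 groups of values examined (23 tested members and 7 subgroup sums in 2 genotypes). Chance flags about 1 in 20 only where values are independent and normally distributed. Here the subgroup sums repeat values of the members, and all 13 flags were for the highest library. The count of flags therefore cannot be read against that rate. WT replicate 3, one of the 2 shallowest libraries, was the highest WT library for Lhx6 (51.6 CPM, next 14.95), Dlx1 (39.6, next 26.8), Adarb2 (24.0, next 9.23), Erbb4 (120, next 69.2) and the summed regulators (210 CPM, next 114). WT replicate 6, the shallowest library, was the highest for Kcnip1 (39.1 CPM, next 21.6) and for the summed genes of several classes (120 CPM, next 73.4). In that library 1 count was worth 3.01 CPM. Fmr1-KO replicate 2, the shallowest Fmr1-KO library, was the highest Fmr1-KO library for Dlx6os1 (21.6 CPM, next 7.25), Adarb2 (17.6, next 7.74) and the summed regulators (124 CPM, next 78.9). Fmr1-KO replicate 1 was the highest for Erbb4 (101 CPM, next 65.7). Fmr1-KO replicate 5 was the highest for Cck (491 CPM, next 310.5) and for the summed Vip and Cck genes (554 CPM, next 364).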

How the results depend on the processing

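No member passed in any setting. Genes past the threshold numbered 2 over all 16 libraries, 8 with DESeq2, 7 with limma-voom and quality weights, 5 with no filter, 0 with log2(TPM + 1) and 0 with log2(TPM + 0.1), and 2 to 3 when each library was left out in turn. Members at an unadjusted p under 0.05 numbered 4, all lower, in the main fit, and 1, higher in Fmr1-KO, in either TPM fit. They numbered 3 to 5 with a library left out. With no filter, with label letter as covariate and without WT replicate 5, 1 was higher and 4 lower. Without WT replicate 4, 1 was higher and 3 lower. In the TPM fits the median gene stood at 0.55 and 0.62, which was subtracted from the log2 fold changes but not before the p-values were computed. Of 253 combinations of a member and a setting other than leaving out 1 library, 12 changed sign. The log2 fold change became 0.059 for Gad1 with log2(TPM + 1). With limma-voom and quality weights it became 0.056 for Gad2, -0.055 for Slc32a1, 0.29 for Adarb2 and -0.011 for Penk. It became 0.012 for Gad2 with library totals, 0.020 for Gad2 and 0.29 for Adarb2 with animal number fitted as random, and 0.10 for Gad2, 0.043 for Lhx6, 0.43 for Adarb2 and 0.057 for Erbb4 without WT replicates 3 and 6. With each library left out in turn the range was -0.41 to 0.37 for Adarb2, -0.32 to 0.056 for Elfn1, -0.29 to 0.032 for Erbb4, -0.15 to 0.12 for Gad2, -0.20 to 0.022 for Lamp5, -0.76 to 0.020 for Lhx6 and -0.91 to 0.10 for Sst. In TPM the log2 ratio of summed levels became 0.39 for the GABA synthesis genes, -0.10 for the regulators and 0.20 for the genes of several classes. Without WT replicates 3 and 6, a setting chosen after seeing the data, these ratios in TPM were 0.13, -0.22 and 0.037. No shift of the median gene was subtracted from these ratios. The CA1 pyramidal marker sum was also higher in TPM, at a mean of 2646 across Fmr1-KO mice and 2082 across WT mice. It was 2555 across the 6 deeper WT libraries. The r of Gad1 and Gad2 was 0.67 and adjusted below 0.05 without the 2 libraries farthest from the Gad1 median, and that of Gad1 and Sst was 0.054 within Fmr1-KO. The cause of these changes was not tested. No paired analysis was possible because the genotypes share no animal number. At this depth 9 members could not be tested, and a count of 0 allows up to 0.868 to 9.03 CPM.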
